A study of Mus musculus with 9 samples.

Results

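Cytosolic ribosomal protein genes encode the proteins that, with ribosomal RNA, build the small and the large subunit of the ribosome. They were taken by symbol alone, with no measured value: protein-coding genes named Rpl or Rps and a number, plus Rpsa, Rplp0, Rplp1 and Rplp2, without the Rps6k kinases, Rps19bp1 and symbols with -ps. In the GENCODE M21 annotation this gave 85 of 22136 genes, of which 33 belong to the small (Rps) and 52 to the large (Rpl) subunit. They lie on 19 chromosomes, with 14 on chromosome 7 and 4 on X. RNA was sequenced in bulk from CD45+ immune cells. They were sorted from YUMM 2.1 tumours, a transplantable mouse melanoma grown under the skin of C57BL/6J hosts. Once tumours measured 20 to 50 mm3, mice received an isotype control (IgG), anti-B7-H3, which targets a surface molecule related to the B7 ligands of T cells, or anti-PD1, which targets a receptor that restrains T cells. Each group has 3 libraries, all from hosts with an intact immune system and the same tumour line. Age and sex of the mice, and whether a library came from 1 animal or a pool, are given by no source used here, so p-values measure only the spread between these samples.

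Each ribosome holds its core proteins in fixed proportion, and cells that grow or divide, such as activated lymphocytes, make many of them. Their mRNAs are short, abundant and long-lived, and most begin with a run of pyrimidines (the terminal oligopyrimidine, or TOP, element) through which mTOR and LARP1 control their translation. Translational control of this kind need not alter the mRNA level, which is what was measured here. Some members have a paralogue, a related gene whose product can take the same place, often in a particular tissue.

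Library totals ran from 14487012 to 31533106 estimated counts, and 3 counts in a library lay between 0.0925 and 0.223 CPM (counts scaled to a common TMM-adjusted library total). The 6 leukocyte markers, among them Ptprc (CD45), summed to between 8471 and 10821 CPM in every library, and the 7 melanoma markers to between 0.376 and 14.1 CPM. IgG 2, anti-PD1 3 and IgG 3 had 1896, 1248 and 822 of the 13178 tested genes at 0, against 224 to 308 in the other 6 libraries. Of the 85 ribosomal protein genes, 83 passed the filter on low counts, and Rpl10l and Rpl39l did not. A mean of at least 50 CPM was reached by 82 of them.

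Ribosomal protein genes took 5.62, 4.10 and 9.89% of the counts in IgG libraries 1, 2 and 3. Their share was 9.59, 4.51 and 4.07% in the anti-B7-H3 libraries and 4.07, 4.69 and 4.47% in the anti-PD1 libraries. IgG 3 and anti-B7-H3 1 thus stood well above the other 7 libraries, and the 3 groups overlapped. The group values were 6.54 ± 3.00% for IgG, 6.06 ± 3.07% for anti-B7-H3 and 4.41 ± 0.313% for anti-PD1 (mean ± SD, n = 3 each). The differences between groups were therefore smaller than the SD within the IgG and anti-B7-H3 groups. Counting error was small beside this, since the 95% Wilson intervals of the shares reached at most 0.0149 percentage points to either side; without molecular identifiers they cover counting error only. Both subunits took part: small subunit genes held 4.19 and 4.16% of the counts in IgG 3 and anti-B7-H3 1 and between 1.64 and 2.32% elsewhere, and large subunit genes 5.70 and 5.43% against between 2.38 and 3.30%.

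**Figure D1:**
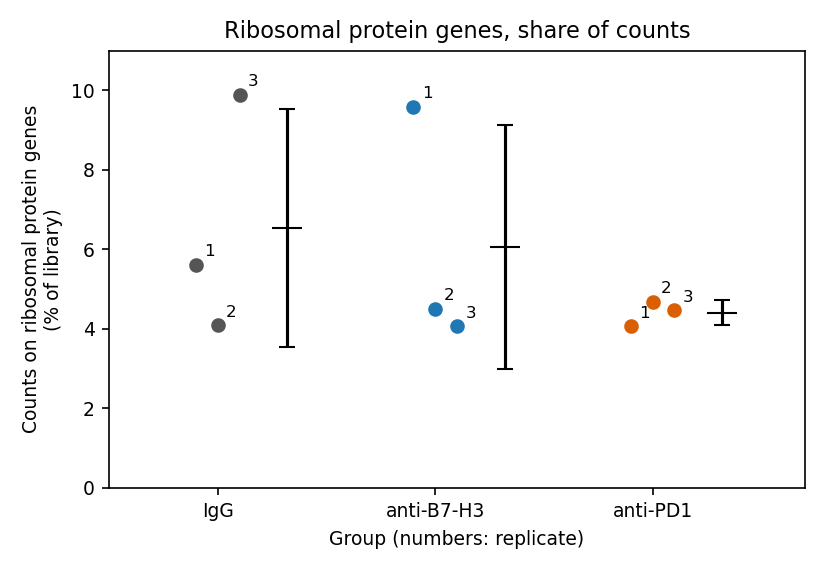
Share of each library's counts that fell on the 85 ribosomal protein genes (y axis, percent) in the 3 groups, with each library as a numbered point and the mean ± SD of 3 libraries as the bar beside it. IgG 3 (9.89%) and anti-B7-H3 1 (9.59%) lie apart from the other 7 libraries, which lie between 4.07 and 5.62%.

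The members varied as a block. The level of each of the 82 abundant members was set against its own mean over the 9 libraries, on the log2 CPM scale. The median member then lay at -0.02, -0.58 and 1.01 in IgG 1 to 3, at 1.04, -0.30 and -0.49 in anti-B7-H3 1 to 3, and at -0.35, -0.10 and -0.22 in anti-PD1 1 to 3. The library median held 89.9% of the variance of these 82 genes. Across the 9 libraries, the correlation of a member with the median of the others had a median r of 0.98, and 79 of 82 members reached 0.9 or more; since all members share each library's depth and scaling, this is a description only. The spread was larger than that of other genes, short or long. The SD over libraries had a median of 0.62 for the 82 members, whatever their length. It was 0.36 for 395 other short genes of at least 50 CPM (coding length up to 500 bases) and 0.31 for 3491 longer ones. Members of up to 300 bases had a median SD of 0.81, those of over 300 and up to 450 bases 0.68, and those over 600 bases 0.54. Other short genes were also at their highest in IgG 3 and anti-B7-H3 1, by 0.40 and 0.33 above their own mean.

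**Figure D2:**
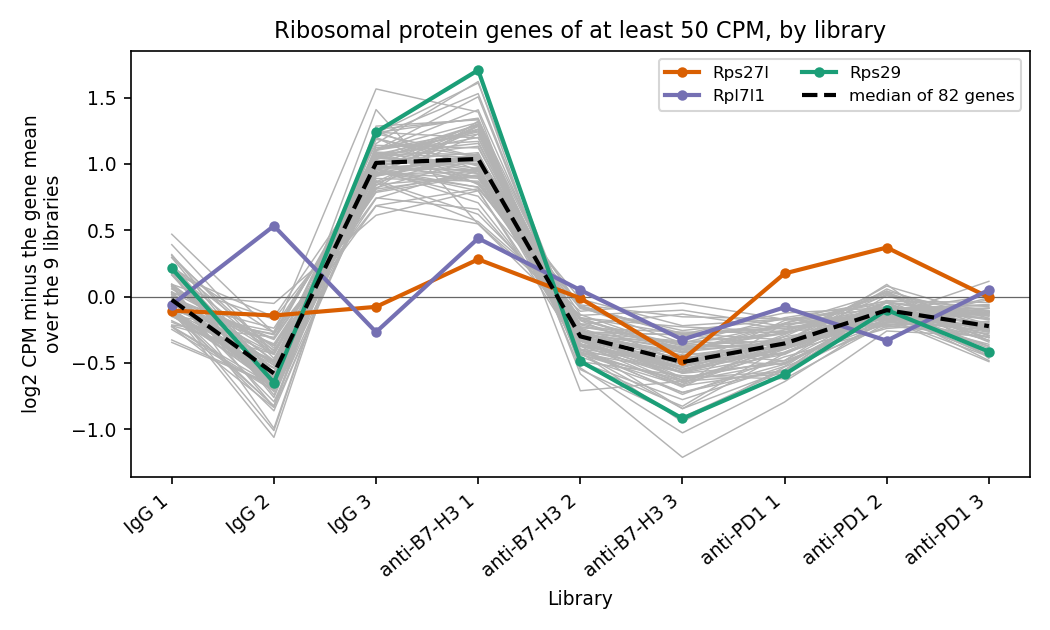
Level of each of the 82 ribosomal protein genes with a mean of at least 50 CPM, as log2 CPM minus the gene's own mean (y axis), in the 9 libraries (x axis). Grey lines are single genes and the dashed line their median, which peaks at 1.01 in IgG 3 and 1.04 in anti-B7-H3 1; Rps29 lies above the median there, while Rps27l and Rpl7l1 do not follow it.

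Several other features differed in the same libraries, and their part in the level of ribosomal protein genes was not tested. Mitochondrially encoded genes took 3.89% of the counts in IgG 3 and 4.51% in anti-B7-H3 1, against between 1.64% (IgG 2) and 3.88% (anti-PD1 2) elsewhere. The 6 erythroid markers summed to 435 CPM in IgG 3 against between 2.03 and 70.3 CPM elsewhere. The 11 B cell markers summed to 714 CPM in anti-B7-H3 1 against between 50.6 and 180 CPM elsewhere, with Cr2 at 0 in the IgG group. The effective length that the files give a 255-base sequence, which reflects fragment size, was 92.9 in IgG 3 and 111 in anti-B7-H3 1, and 87.8 to 107 elsewhere. In bulk RNA, fewer cells of a type and less RNA per cell cannot be told apart.

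Anti-B7-H3 was compared with IgG to ask whether ribosomal protein genes differed in the immune cells of treated tumours. With edgeR's quasi-likelihood test, 0 of the 83 tested members passed an adjusted p of 0.05, where 0.85% of all tested genes did. At an unadjusted p under 0.05 there was 1 member, Rpl3l, which had 0 counts with IgG and passed the filter only through the antibody libraries, so that its test supports nothing. DESeq2 and limma-voom also called 0 members, where they called 2.98 and 0.653% of all tested genes. The median log2 change of the members was -0.02, against 0.02 for all tested genes, with 29 members above 0 and 54 below, and the median standard error was 0.47. That split depended on the scaling: 7 members lay above 0 with plain library totals and 37 with DESeq2. With limma-voom and quality weights 2 did, at a median of -0.35. Without IgG 3 the median was 0.54 and 82 members lay above 0, and without anti-B7-H3 1 it was -0.69 and 1 member did. The groups did not overlap for 1 member on the higher side, Rpl3l (1.20%, against 9.96% of all tested genes) and for 0 tested members on the lower side (5.49% of all).

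Anti-PD1 against IgG likewise gave 0 called members, where 1.74% of all tested genes were called (edgeR). Again Rpl3l alone had an unadjusted p under 0.05, with the same limit. DESeq2 and limma-voom called 0 members, where they called 5.01 and 1.37% of all tested genes. The median log2 change was -0.52, against -0.04 for all tested genes, and 81 of the 83 members lay below 0. This shift rested on IgG 3: without that library the median was 0.04 and 48 members lay above 0. Rps27l, and Rpl3l by way of the filter, did not overlap on the higher side (2.41% of members, against 9.99% of all tested genes), and Rpl22 on the lower side (1.20%, against 6.52%).

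Between the antibodies, 0 members and 0% of all tested genes were called by edgeR, and 0 members had an unadjusted p under 0.05. DESeq2 and limma-voom called 0 members, where they called 0.106 and 0.0152% of all tested genes. The median log2 difference, anti-B7-H3 minus anti-PD1, was 0.49 for members and 0.04 for all tested genes, with 82 members above 0. Without anti-B7-H3 1 it was -0.18, with 11 members above 0, and with limma-voom and quality weights it was 0.07, with 60 above 0. Rpl3, Rpl4 and Rpsa did not overlap, all higher with anti-B7-H3 (3.61% of members, against 7.13% of all tested genes), and 0 members were separated the other way, where 6.4% of all tested genes were. The 2 comparisons with IgG share their control libraries, so their values are not independent of each other.

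**Figure D3:**
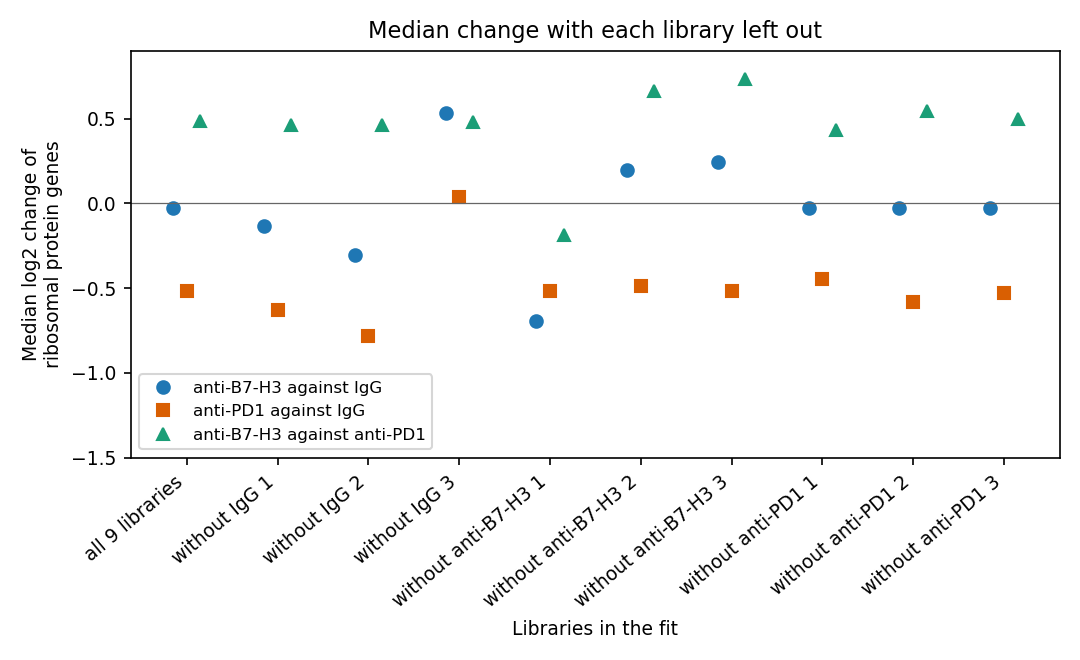
Median log2 change of the tested ribosomal protein genes (y axis) in the 3 comparisons, with all 9 libraries and with each library left out in turn (x axis). The median of anti-B7-H3 against IgG moves from -0.02 to 0.54 without IgG 3 and to -0.69 without anti-B7-H3 1, and that of anti-PD1 against IgG from -0.52 to 0.04 without IgG 3.

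Members with known roles outside or at the edge of the ribosome followed the block, Rpl5 less closely (r = 0.88 with the median of the other members). Rplp0, which anchors the acidic stalk that recruits elongation factors, was at 1561, 1272 and 3310 CPM in the IgG libraries, 3264, 1596 and 1523 CPM with anti-B7-H3 and 1486, 1555 and 1530 CPM with anti-PD1. Its log2 changes were 0.06 ± 0.38 and -0.43 ± 0.38 (± SE; edgeR adjusted p = 0.991 and 0.764). The stalk partners Rplp1 and Rplp2 differed by -0.66 ± 0.60 and -0.67 ± 0.60 with anti-PD1 (edgeR adjusted p = 0.772 and 0.771). All 3 stalk genes were highest in IgG 3 and anti-B7-H3 1.

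Rps6, the small subunit protein that S6 kinases phosphorylate downstream of mTOR, was at 1418, 1143 and 2565 CPM with IgG, 2766, 1212 and 1198 CPM with anti-B7-H3 and 1129, 1308 and 1247 CPM with anti-PD1. The groups overlapped, with log2 changes of 0.01 ± 0.37 and -0.48 ± 0.37 (edgeR adjusted p = 0.998 and 0.727). Rpl5 and Rpl11, which with 5S RNA can bind MDM2 and stabilise p53, differed by -0.64 ± 0.48 and -0.38 ± 0.40 with anti-PD1. Rpl5 stood apart from Rpl11: it was at 1823 CPM in IgG 3 and 1001 CPM in anti-B7-H3 1, while Rpl11 was at 735 and 865 CPM there. Rps27a, made as a fusion with ubiquitin, was at 504, 321 and 1080 CPM with IgG, 1143, 419 and 384 CPM with anti-B7-H3 and 405, 465 and 409 CPM with anti-PD1. Rpsa, the small subunit protein also known as the laminin receptor precursor, was at 2813, 1501 and 1409 CPM with anti-B7-H3, just above the 1395, 1392 and 1115 CPM of anti-PD1, and at 1249, 986 and 3596 CPM with IgG. Rpl3 and Rpl4, large subunit proteins, showed the same narrow gap between the antibodies: their lowest anti-B7-H3 values were 1608 and 1673 CPM and their highest anti-PD1 values 1603 and 1595 CPM. The log2 differences of the 3 genes, 0.55 ± 0.46, 0.34 ± 0.34 and 0.35 ± 0.28, were not called (edgeR adjusted p = 1.00 each).

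Among members of at least 50 CPM, with anti-PD1 against IgG, the largest negative log2 changes were those of the small subunit genes Rps27 (-1.22 ± 0.68), Rps21 (-0.89 ± 0.67) and Rps29 (-0.83 ± 0.71), of the large subunit genes Rpl37a (-0.82 ± 0.65) and Rpl22 (-0.70 ± 0.44), and of Rps27rt (-0.70 ± 0.63), with edgeR adjusted p from 0.585 to 0.770. Rps29 was at 361, 198 and 735 CPM with IgG, 1016, 222 and 164 CPM with anti-B7-H3 and 207, 290 and 233 CPM with anti-PD1. Its 3 anti-PD1 values lay within the range of IgG. Rps21 was at 151, 85.2 and 257 CPM with IgG, 355, 79.5 and 56.6 CPM with anti-B7-H3 and 74.0, 103 and 89.9 CPM with anti-PD1. Rpl37a was at 942, 496 and 1778 CPM with IgG, 2220, 573 and 399 CPM with anti-B7-H3 and 532, 657 and 634 CPM with anti-PD1. With anti-B7-H3 against IgG, the largest positive changes were small: Rps2 (0.19 ± 0.39), Rps28 (0.19 ± 0.68), Rpl10 (0.17 ± 0.46), Rps18 (0.16 ± 0.44), Rps29 (0.12 ± 0.71) and Rpl8 (0.10 ± 0.45). The largest negative ones were those of Rps27 (-0.48 ± 0.68), Rpl5 (-0.33 ± 0.48), Rpl22 (-0.23 ± 0.44), Rpl24 (-0.21 ± 0.43), Rpl13a (-0.21 ± 0.43) and Rpl6 (-0.20 ± 0.36), none called (the smallest edgeR adjusted p was 0.916).

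**Figure D4:**
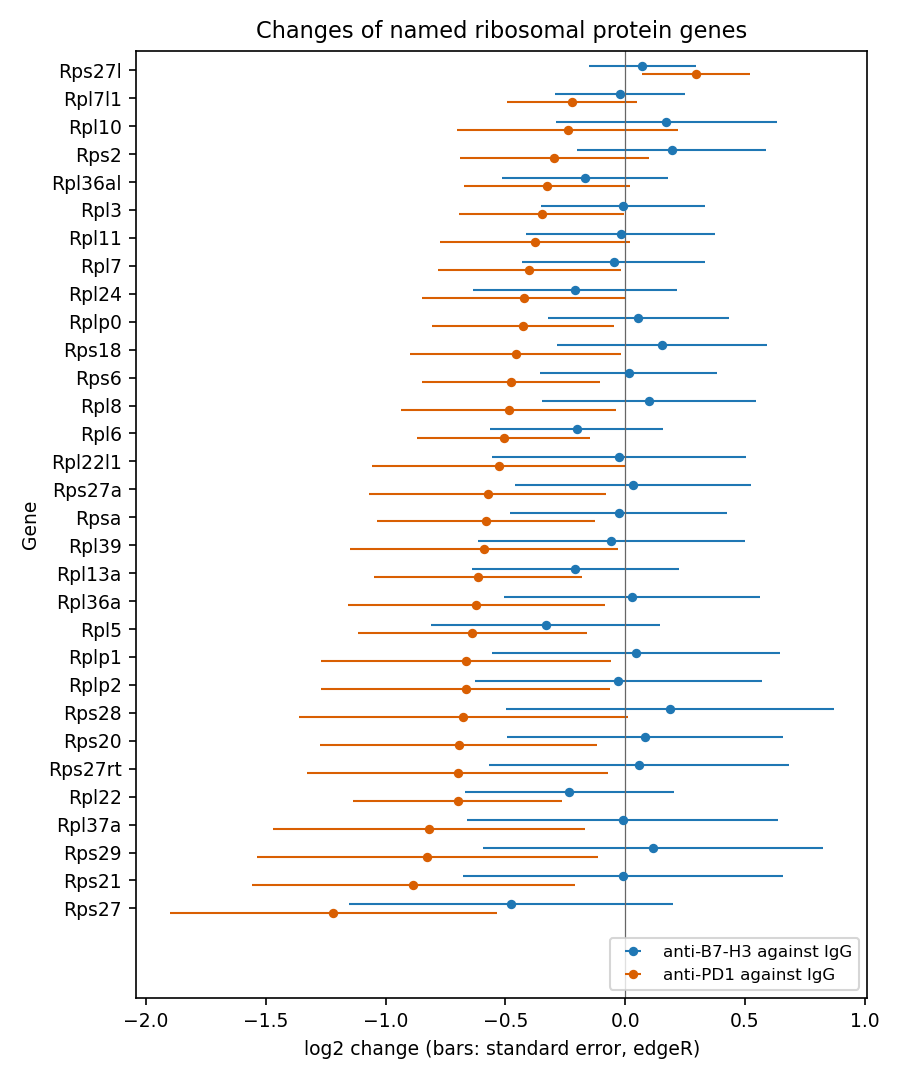
Log2 change against IgG (x axis) with anti-B7-H3 (blue) and anti-PD1 (orange) for named ribosomal protein genes of at least 50 CPM (y axis), with bars of 1 standard error from edgeR. The anti-PD1 values lie left of 0 for every gene shown but Rps27l (0.30 ± 0.22), and no value passed the test.

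The spread of a member over the libraries went with its coding length. The SD of log2 CPM had a median of 0.81 in 11 members of up to 300 bases, 0.68 in 29 of over 300 and up to 450 bases, 0.59 in 20 of over 450 and up to 600 bases and 0.54 in 22 longer ones, and Spearman's rho with length was -0.70 over the 82 members, which share the same libraries. Rps27 (0.95), Rps29 (0.90) and Rps21 (0.88) varied most, and, of the members over 1000 bases, Rpl3 and Rpl4 had an SD of 0.45 and 0.37. The median change with anti-PD1 went the same way, from -0.68 in the shortest class to -0.46 in the longest. That shift rested on IgG 3 over all members, as described above. With anti-B7-H3 the class medians were near 0, at -0.008 in the shortest and -0.03 in the longest. Rps27l, at 255 bases, had the smallest SD of all (0.25) and Rpl7l1 the next (0.31). Whether library preparation of short molecules took part was not tested.

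**Figure D5:**
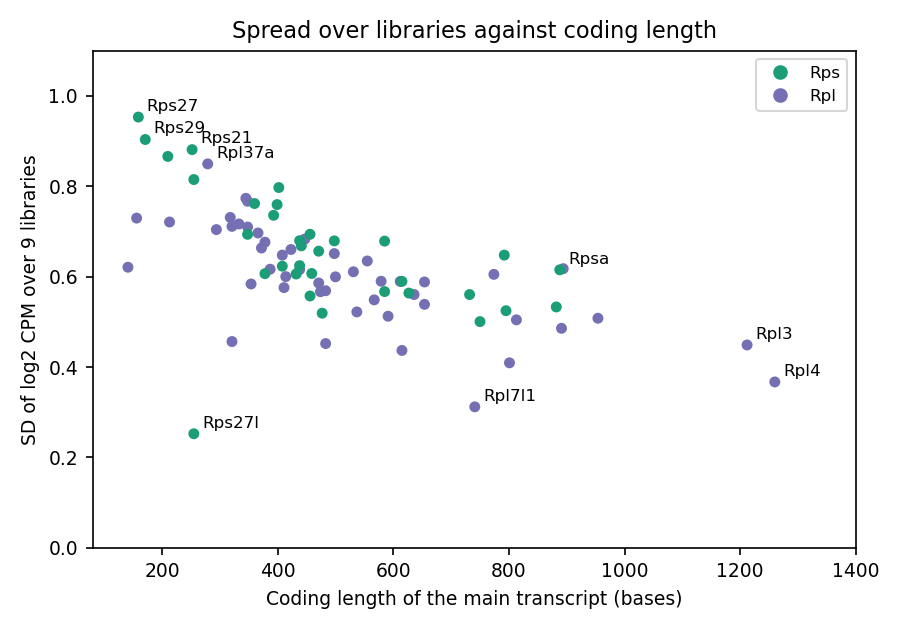
SD of log2 CPM over the 9 libraries (y axis) against the coding length of the main transcript (x axis, bases) for 82 ribosomal protein genes, small subunit in green and large subunit in purple. The SD goes from 0.95 for Rps27 to 0.37 for Rpl4, and Rps27l (0.25) and Rpl7l1 (0.31) lie below the genes of their length.

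Paralogues were the members least like the rest. By the correlation with the median of the other members over the 9 libraries, the 5 lowest were Rpl39l (-0.26), Rpl3l (-0.14), Rpl7l1 (0.08), Rpl10l (0.16) and Rps27l (0.37). Rpl39l, Rpl3l and Rpl10l had few counts, so their correlations say little. Rps27l and Rpl7l1 had higher counts. Rps27l (chr9:66946086-66949516, GRCm38), a p53-responsive paralogue of Rps27, was at 64.7, 63.1 and 66.0 CPM with IgG, 84.6, 69.0 and 50.0 CPM with anti-B7-H3 and 78.6, 90.0 and 69.3 CPM with anti-PD1. All anti-PD1 values lay above all IgG values, and IgG 3 did not stand out as it did for the block. Its log2 change was 0.30 ± 0.22 with anti-PD1 and 0.07 ± 0.22 with anti-B7-H3 (edgeR adjusted p = 0.719 and 0.970).

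Rps27 (chr3:90212522-90213651) and Rps27l are shown because their transcripts differ enough to be told apart by their reads, while their proteins are alike. The coding sequences from GENCODE M21 both have 255 bases and differ at 61 of them (76.1% identity; capitals mark the differing bases):
Rps27: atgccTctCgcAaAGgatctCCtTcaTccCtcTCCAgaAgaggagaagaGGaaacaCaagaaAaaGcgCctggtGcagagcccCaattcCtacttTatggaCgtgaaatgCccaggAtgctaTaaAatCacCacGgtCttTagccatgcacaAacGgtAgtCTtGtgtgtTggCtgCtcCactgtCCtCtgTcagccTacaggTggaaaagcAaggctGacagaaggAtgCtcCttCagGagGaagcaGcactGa
Rps27l: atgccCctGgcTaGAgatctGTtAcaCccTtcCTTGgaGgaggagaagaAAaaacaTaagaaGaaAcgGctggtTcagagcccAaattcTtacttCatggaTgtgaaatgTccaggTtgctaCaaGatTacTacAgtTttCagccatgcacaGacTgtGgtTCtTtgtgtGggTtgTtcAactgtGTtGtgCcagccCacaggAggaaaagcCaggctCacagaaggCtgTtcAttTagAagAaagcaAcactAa
They share no 31-base word. Rps27 was at 86.6, 51.7 and 185 CPM with IgG, 164, 41.7 and 27.0 CPM with anti-B7-H3 and 36.0, 52.2 and 50.8 CPM with anti-PD1, so it followed the block where Rps27l did not. The value of Rps27 is uncertain for another reason. Its full coding sequence is identical to that of Rps27rt, an intronless gene on chromosome 9 (0 differences), and in the files that full sequence stands under Rps27rt while Rps27 keeps shorter transcripts. Rps27 thus held 7.40% of the pair's counts. The summed pair was at 1046, 563 and 1922 CPM with IgG, 2458, 642 and 476 CPM with anti-B7-H3 and 585, 843 and 687 CPM with anti-PD1, the pattern of the block. Rpl10 has the same limit: its full coding sequence of 645 bases is identical to that of Rpl10-ps3, which stood outside the symbol rule, and Rpl10 held 16.5% of that pair's counts. The Rpl10 pair was at 654, 484 and 1360 CPM with IgG, 1381, 737 and 638 CPM with anti-B7-H3 and 703, 750 and 743 CPM with anti-PD1. In all, 8 members shared at least 50% of their 31-base words with a protein-coding gene outside the rule. No 31-base word was shared by 67 members with the coding sequence of any other quantified gene. The 301 pseudogenes annotated under ribosomal protein symbols were not quantified, so words shared with them were not counted.

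The other paralogues fell into 2 kinds. Rpl22l1 and Rpl36al followed the block with their partners. Rpl22l1, which can replace Rpl22, was at 106, 65.0 and 155 CPM with IgG, 212, 52.9 and 55.6 CPM with anti-B7-H3 and 57.8, 84.6 and 84.0 CPM with anti-PD1. Rpl22, a large subunit protein with a known role in T cell development, was at 134, 107 and 233 CPM with IgG, 242, 90.4 and 71.3 CPM with anti-B7-H3 and 86.8, 101 and 105 CPM with anti-PD1. Each anti-PD1 value of Rpl22 lay below each IgG value, by a narrow margin, and the change was not called (edgeR adjusted p = 0.633). Rpl36al was at 178, 169 and 268 CPM with IgG, 304, 132 and 111 CPM with anti-B7-H3 and 152, 171 and 166 CPM with anti-PD1; its partner Rpl36a differed by -0.62 ± 0.54 with anti-PD1 and Rpl36al by -0.33 ± 0.35.

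Rpl7l1, a paralogue of Rpl7 linked to ribosome assembly, was the other abundant member that did not follow the block. It was at 59.6, 90.1 and 51.7 CPM with IgG, 84.5, 64.4 and 49.7 CPM with anti-B7-H3 and 58.9, 49.5 and 64.5 CPM with anti-PD1. IgG 2 was its highest library and IgG 3 among its lowest, the reverse of Rpl7, which was at 775, 629 and 1358 CPM in the IgG libraries. Its log2 changes were -0.02 ± 0.27 and -0.22 ± 0.27 (edgeR adjusted p = 0.993 and 0.833).

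Rpl3l, Rpl10l and Rpl39l, known from muscle or testis, were at or near 0. Rpl3l (chr17:24727820-24736143) had 0 counts in each IgG library, 9, 16 and 24 counts with anti-B7-H3 and 19, 4 and 6 counts with anti-PD1. Pooled over libraries, these were 49 counts for anti-B7-H3, 29 for anti-PD1 and 0 for IgG. Set against a floor of 3 counts summed over the IgG group (0.0542 CPM), the ratios were 11.9 and 6.68, rounded down. That floor covers counting error only and not the spread between libraries. Rpl3l also passed the filter only through the antibody libraries, so no difference between groups is drawn from these ratios. Rpl39l had 3, 21 and 4 counts with IgG, 2, 1 and 4 with anti-B7-H3 and 3, 5 and 27 with anti-PD1, so IgG 2 and anti-PD1 3 held most of them. For Rpl10l there were 3 counts in IgG 2 and 2 in anti-B7-H3 1, and 0 elsewhere.

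Per unit of coding length, on the deposited TPM scale, levels differed widely among the members. Rps27rt had the highest mean over the 9 libraries (4566 TPM, and it carries the sequence it shares with Rps27). Rpl41 (4380 TPM), Rpl37a (3728 TPM) and Rps29 (3477 TPM) were also among the most abundant. The median member was at 912 TPM, 37 members were at 1000 TPM or more, and 2 were under 1 TPM (Rpl3l and Rpl10l). Rpl22 (300 TPM) and Rpl22l1 (253 TPM), and Rpl36a (548 TPM) and Rpl36al (600 TPM), were near each other, while Rps27l (361 TPM) was below Rps27rt and Rpl7l1 (58.3 TPM) below Rpl7 (654 TPM).

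The promoters of Rps6 and Rps27, which followed the block, and of Rps27l and Rpl7l1, which did not, are shown for comparison. They run from 200 bases before to 20 bases after the annotated start (RefSeq, GRCm38.p6; strand of the gene), at chr4:86857348-86857567 (minus strand), chr3:90213629-90213848 (minus), chr9:66945886-66946105 (plus) and chr17:46782637-46782856 (minus). Capitals mark CTTTCC on the given strand, a pyrimidine run of the kind that opens TOP mRNAs, and CCGGAAG or AAGATGG on either strand, words resembling those that GABP and YY1 bind:
Rps6: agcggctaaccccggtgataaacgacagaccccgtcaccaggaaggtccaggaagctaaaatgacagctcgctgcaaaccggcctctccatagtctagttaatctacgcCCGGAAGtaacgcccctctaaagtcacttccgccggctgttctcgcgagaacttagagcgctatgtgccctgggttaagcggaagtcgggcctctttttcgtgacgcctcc
Rps27: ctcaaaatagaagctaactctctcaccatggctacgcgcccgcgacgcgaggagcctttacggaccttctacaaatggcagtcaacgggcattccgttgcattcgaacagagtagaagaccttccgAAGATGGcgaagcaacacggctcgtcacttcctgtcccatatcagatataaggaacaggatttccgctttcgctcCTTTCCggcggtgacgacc
Rps27l: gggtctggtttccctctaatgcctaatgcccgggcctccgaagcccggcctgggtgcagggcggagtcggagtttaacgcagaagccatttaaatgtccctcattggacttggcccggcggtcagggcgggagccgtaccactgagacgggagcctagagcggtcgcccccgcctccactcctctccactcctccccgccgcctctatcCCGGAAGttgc
Rpl7l1: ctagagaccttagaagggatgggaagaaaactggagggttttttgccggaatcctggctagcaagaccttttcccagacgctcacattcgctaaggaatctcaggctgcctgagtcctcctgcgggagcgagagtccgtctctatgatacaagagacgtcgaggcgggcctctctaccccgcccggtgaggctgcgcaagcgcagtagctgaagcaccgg
Of the 85 members, 65 matched a RefSeq promoter, with 77 windows. CTTTCC was found in 26.0% of them, against 10.7% of the 32851 windows of all genes, CCGGAAG in 32.5% against 7.48%, AAGATGG in 7.79% against 4.07%, and TATAAA, the TATA box, in 3.90% against 6.60%. The Rps6 window held CCGGAAG and the Rps27 window CTTTCC and AAGATGG. From its annotated start the Rps6 window reads ctctttttc, a pyrimidine run that the word CTTTCC does not match and that is not marked. The Rps27l window shown held CCGGAAG and no CTTTCC, while a further RefSeq window of Rps27l, at chr9:66946213-66946432, held none of the 4 words, and the Rpl7l1 window held none of the 4 words. Each word was sought anywhere in the window, so a CTTTCC found need not lie at the start of the mRNA. Its share is therefore not the share of genes with a TOP element. A match is a description of letters and not of binding.

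Genes that work with the ribosome were examined in lists, 6 of which are described here. In each of these 6, 0 genes were called in any of the 3 comparisons (edgeR), so the values given for them are of changes not called. The 20 other mRNAs with a TOP element had median log2 changes of -0.35 with anti-PD1 and -0.09 with anti-B7-H3. For the 38 translation factors the medians were -0.27 and -0.05. Genes such as the elongation factors Eef1a1 and Eef2 are in both lists, so these medians are not independent. The TOP list summed to 13798, 10780 and 25203 CPM with IgG and to between 13134 and 14054 CPM with anti-PD1. Translation factors summed to 16492, 14543 and 24268 CPM with IgG and to between 15045 and 16259 CPM with anti-PD1. Both sums were thus highest in IgG 3. Those with the smallest p among the translation factors were Eif3m (-0.49 ± 0.18) and Eif4g1 (-0.42 ± 0.19) with anti-PD1 (edgeR adjusted p = 0.327 and 0.450), and Eif5b (-0.88 ± 0.32) and Eif1ax (-0.47 ± 0.21) with anti-B7-H3 (adjusted p = 0.422 and 0.559).

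The 38 genes of ribosome assembly had a median of -0.28 with anti-PD1, with 33 below 0, and of -0.01 with anti-B7-H3. The smallest p values belonged to Ubtf, a factor for transcription of ribosomal RNA (-0.56 ± 0.18), and Ncl, nucleolin (-0.51 ± 0.18), with anti-PD1 (edgeR adjusted p = 0.224 and 0.284), and to Nop14 (-0.62 ± 0.24) and Riok2 (-0.42 ± 0.29) with anti-B7-H3 (adjusted p = 0.467 and 0.771). Their summed level spread less than that of the block: between 3780 and 4759 CPM with IgG, 3561 and 4797 CPM with anti-B7-H3 and 3097 and 3416 CPM with anti-PD1. The 78 mitochondrial ribosomal protein genes, which serve the separate ribosome of mitochondria, had medians of -0.26 with anti-PD1 and -0.16 with anti-B7-H3. Their sum was 3343, 3787 and 4866 CPM with IgG, 4600, 3342 and 3104 CPM with anti-B7-H3 and 3214, 3576 and 3316 CPM with anti-PD1, highest in the same 2 libraries but over a narrower range. Mrpl46 (-0.77 ± 0.24) and Mrps16 (-0.66 ± 0.24) with anti-PD1 had edgeR adjusted p-values of 0.209 and 0.303, and Mrpl39 (-0.57 ± 0.23) and Mrps23 (-0.46 ± 0.24) with anti-B7-H3 had 0.483 and 0.648.

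Regulators of ribosomal protein synthesis had medians of -0.03 with anti-PD1 and 0.05 with anti-B7-H3 over 19 tested genes. Eif4ebp1, the mTOR target that restrains cap-dependent translation, lay higher with both antibodies (1.07 ± 0.30 and 1.04 ± 0.30, edgeR adjusted p = 0.130 and 0.237). Myc, which drives transcription of ribosome genes, differed by 0.73 ± 0.18 with anti-B7-H3 (adjusted p = 0.149), and the S6 kinase gene Rps6kb2 by 0.78 ± 0.27 with anti-PD1 (adjusted p = 0.274). The 16 genes of ribosome rescue and quality control had medians of -0.04 and -0.005 with anti-PD1 and anti-B7-H3.

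Marker genes of some cell types differed between the groups. The 12 macrophage markers summed to between 126 and 344 CPM with IgG, 1997 and 3017 CPM with anti-B7-H3 and 1851 and 2330 CPM with anti-PD1, and 8 and 9 of them rose (edgeR adjusted p under 0.05). Of 7 tested neutrophil markers 3 and 4 rose, and of 7 plasma cell markers 0 and 2. IgG 3 and anti-B7-H3 1, the libraries highest in ribosomal protein genes, had macrophage sums of 344 and 3017 CPM, each the highest of its group. The same held for the leukocyte markers (10821 and 10137 CPM), the 11 T cell markers (8459 and 6957 CPM) and the 8 dendritic cell markers (372 and 668 CPM), and not for the NK, plasma cell and neutrophil markers. Immunoglobulin and T cell receptor genes took 0.909% of the counts in IgG 3 and 1.89% in anti-B7-H3 1, each the lowest of its group, and 3.46 to 5.31% in the anti-PD1 libraries. The part of these shares in the ribosomal protein level was not tested.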

How the data were processed

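RNA of CD45+ cells was sequenced in 9 libraries, 3 each for IgG, anti-B7-H3 and anti-PD1, grouped by their titles. Per the labels' protocols, RNA of 500 ng or more and an integrity number from 7.0 up was amplified with SMART-Seq v4, depleted of ribosomal RNA and made into libraries with Nextera XT, which does not mark the strand. Per the submitters' processing notes, the build was GRCm38 and FastQC 0.11.8 was run; the quantifier is not given in the sources used here. Per the file headers, the authors deposited, for 58083 transcripts in each library, an estimated count, which is not normalised, a TPM value, and an effective length. Lengths equalled the coding sequence for 92.2% of 57298 transcripts compared.

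Transcripts were matched to GENCODE M21 (57409 of them; 674, with 0.236 to 0.547% of the counts, were left out), and estimated counts were summed per gene and rounded. All 9 libraries entered 1 fit in edgeR 4.0.16 (R 4.3.3; TMM, filterByExpr, robust quasi-likelihood, a mean per group, no covariate), with Benjamini-Hochberg adjustment over 13178 genes at 0.05. The fit was tested on simulated counts. Other settings used DESeq2 1.42.0 and limma 3.58.1 (voom with quality weights), other scalings, filters and counts, and left out libraries.

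Members and lists were chosen with earlier results of these data known. Named genes are, in each comparison, the 6 largest changes each way among members of at least 50 CPM with that sign, genes of known roles, paralogues and their partners, the 5 members least like the rest, and, per list, the 2 smallest p values; Rpl4 and Rpl41 were named after their values were seen. Some items are not reported here.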

Additional observations from a re-analysis of the deposited data

How the results depend on the processing

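Over 26 other settings in each of 3 comparisons, 0 of 78 tests across all genes called a ribosomal protein gene. The share of all tested genes called was 0.355 to 5.01% in the comparisons with IgG. Between the antibodies it was 0 to 0.106%, so there was little to call. For the members, what changed was their median log2 change. With each library left out in turn, it ran from -0.69 (without anti-B7-H3 1) to 0.54 (without IgG 3) for anti-B7-H3 against IgG, from -0.78 to 0.04 for anti-PD1 against IgG, and from -0.18 (without anti-B7-H3 1) to 0.73 for anti-B7-H3 against anti-PD1. Without IgG 3 and anti-B7-H3 1 together, a setting chosen after seeing the data, the medians were -0.14, 0.05 and -0.19. Plain library totals moved the median of all genes to -0.07 and -0.14 in the comparisons with IgG, and that of the members to -0.12 and -0.58. With limma-voom's quality weights the members' medians were -0.35, -0.41 and 0.07. The share of ribosomal protein genes was 11.6, 10.4 and 7.77% of the TPM for IgG, anti-B7-H3 and anti-PD1, a scale that divides by length and so lifts short genes. With mitochondrially encoded, haemoglobin, immunoglobulin and T cell receptor genes left out of the total, the share of counts was 6.83, 6.43 and 4.77% in the same order.

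The titles number the replicates without saying whether the numbers pair the samples. Deviations of same-numbered libraries correlated between -0.12 and 0.16. No shared effect was visible, but such correlations cannot show that the samples were unpaired. With the replicate number as a block, 0 members were called, where 0.486, 0.964 and 0% of all tested genes were. The medians of the members were -0.04, -0.43 and 0.39. With 3 libraries a group and standard errors near 0.47, changes of the size seen in the medians could not be told from 0 in single members.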

Other observations

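Within the block, the make-up was compared by scaling each library to its summed ribosomal protein counts, a setting chosen after seeing the data. Again 0 members were called in any comparison by edgeR. Of all tested genes, 0.395 and 1.00% were called with anti-B7-H3 and anti-PD1 against IgG, and 0% between the antibodies. Per 10000 ribosomal protein counts, Rps27l made up 12.5, 17.2 and 6.29 in the IgG libraries, 7.92, 15.5 and 12.7 with anti-B7-H3 and 18.7, 18.5 and 15.4 with anti-PD1. It was lowest in IgG 3 and anti-B7-H3 1, where the block was highest. The scaling itself brings this about, since a gene of steady CPM must fall where the divisor is high. It is therefore no separate observation. Its log2 change on this scale was 0.55 ± 0.53 for anti-PD1 against IgG (edgeR adjusted p = 1.00). Rps27 made up 16.7, 14.1 and 17.7 with IgG, 15.4, 9.39 and 6.84 with anti-B7-H3 and 8.58, 10.7 and 11.3 with anti-PD1. The log2 change of Rps27 on this scale was -0.66 ± 0.52 for anti-PD1 against IgG (edgeR adjusted p = 1.00). It has the limit that the full coding sequence of Rps27 is counted under Rps27rt.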
